A study of Mus musculus with 70 samples.

Results

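Interferon-stimulated genes are genes whose transcription is switched on when interferons bind their receptors, and 35 of them were followed here. They are a list of gene symbols, and all 35 were found among the 23732 gene symbols that the 3 deposited count tables share. All 35 had enough counts to be tested in every tissue and sex. The study asked how osteopontin, the secreted protein encoded by Spp1, acts in steatohepatitis when it comes from myeloid cells. It sequenced RNA of total liver and of resident liver macrophages sorted as F4/80 high and CD11b low, in 70 libraries that make 16 groups. The groups, with the knock-in and the NASH (nonalcoholic steatohepatitis) diet first, are OpnKI Mye on NASH diet (KI NASH), OpnKI Mye on control diet (KI control), Lyz2.Cre+/+ on NASH diet (WT NASH) and Lyz2.Cre+/+ on control diet (WT control), each in male and female mice after 24 weeks of diet. WT is the name that the sample titles give to the Lyz2.Cre+/+ animals, so the reference genotype itself carries Cre at Lyz2, the lysozyme gene of myeloid cells. The titles of the liver libraries called WT NASH here are an exception, since they name sex and diet but no genotype. The labels give KI only as OpnKI Mye, by its name an osteopontin knock-in in myeloid cells. They do not state the Cre dose of KI animals or the animals' age. Liver groups hold 4 libraries each, and macrophage groups 4 on control diet, 5 on NASH diet in males and 6 on NASH diet in females.

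Type I interferons signal through receptors that activate a complex that includes Stat2 and Irf9 and binds the interferon-stimulated response element (ISRE), while interferon gamma acts through the gamma-activated site (GAS). The induced genes include the transcription factors that carry the signal on, sensors of foreign RNA and DNA, and effectors that block viral replication. In the liver these genes are known to be used by hepatocytes and by Kupffer cells, the resident macrophages. In bulk samples of this kind, fewer cells of a type and less RNA per cell cannot be told apart.

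The members fall into 7 roles. The transcription factors were Irf1, Irf7, Irf9 and Stat2. The IFIT genes Ifit1, Ifit2, Ifit3 and Ifit3b encode proteins that bind foreign RNA, and they lie within 99.3 kb on chromosome 19. The OAS genes Oas1a, Oas1b, Oas1g, Oas2, Oas3, Oasl1 and Oasl2 encode synthetases that sense double-stranded RNA and their relatives, all on chromosome 5. The GTPases were Gbp2, Gbp2b, Gbp3, Gbp5, Gbp6 and Gbp7, guanylate-binding proteins that act against intracellular pathogens, and the antiviral Mx1 and Mx2. The sensors were Ifih1, Ddx58, Dhx58 and Zbp1. Isg15, a small protein attached to others like ubiquitin, stood with Usp18, which removes it. The other effectors were Rsad2, Cmpk2, Bst2, Ifi44, Trim30a and Parp14. Reads of Ifit3 and Ifit3b, of the Oas1 genes, of Gbp2 and Gbp2b, and of Gbp6 and its relative Gbp10 can be shared between near-identical copies, so values of single copies are uncertain. Oas1b and Mx2 are annotated in GENCODE M21 as polymorphic pseudogenes, genes that are intact in some mouse strains only.

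Sequence around the annotated start was searched for letters that match the element through which type I interferon acts. RefSeq promoter windows of 300 bases (GRCm38.p6), which run from upstream to just past the start, were matched for 26 of the 35 members. The ISRE core, searched on both strands as GAAA, any 2 bases and GAAA again, was present in 19 of 31 member windows (61.3%), against 1131 of all 32851 windows (3.44%). The matches of Ddx58 and Ifih1, and that in a window of Trim30a, lie after the annotated start. The GAS, searched as TTCNNNGAA, which reads the same on both strands, was present in 6 of 31 member windows (19.4%), against 2726 of all windows (8.3%). A match is a description of letters and not a proven site. The 200 bases before the annotated start are shown for 5 members whose values are given below, with the ISRE core in capitals (on the opposite strand each GAAA reads TTTC). Isg15, Ifit1 and Gbp7 have matches close to the start, Gbp2b has a single match farther upstream, and the window of Irf7 holds none.
Isg15, chr4:156200819-156201018, minus strand: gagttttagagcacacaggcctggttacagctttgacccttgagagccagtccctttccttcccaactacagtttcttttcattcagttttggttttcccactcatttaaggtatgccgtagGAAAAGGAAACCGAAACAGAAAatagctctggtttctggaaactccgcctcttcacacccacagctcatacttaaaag
Ifit1, chr19:34640689-34640888, plus strand: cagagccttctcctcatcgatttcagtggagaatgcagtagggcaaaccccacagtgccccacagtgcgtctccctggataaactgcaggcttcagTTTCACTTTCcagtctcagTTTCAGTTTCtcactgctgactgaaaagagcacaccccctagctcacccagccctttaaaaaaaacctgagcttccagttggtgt
Gbp7, chr3:142530136-142530335, plus strand: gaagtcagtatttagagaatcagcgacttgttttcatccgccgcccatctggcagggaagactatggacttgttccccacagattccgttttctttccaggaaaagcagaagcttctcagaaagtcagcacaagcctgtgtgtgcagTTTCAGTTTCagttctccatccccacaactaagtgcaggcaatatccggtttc
Gbp2b, chr3:142594647-142594846, plus strand: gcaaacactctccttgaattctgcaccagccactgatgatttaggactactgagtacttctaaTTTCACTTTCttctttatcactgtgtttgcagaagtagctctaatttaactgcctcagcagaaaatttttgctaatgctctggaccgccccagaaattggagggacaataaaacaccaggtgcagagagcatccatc
Irf7, chr7:141266425-141266624, minus strand: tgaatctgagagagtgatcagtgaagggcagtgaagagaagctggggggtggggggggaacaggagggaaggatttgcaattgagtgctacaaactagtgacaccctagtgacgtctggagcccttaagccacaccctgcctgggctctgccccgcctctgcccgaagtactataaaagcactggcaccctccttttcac

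The libraries held 14321776 to 29966174 counts. Spp1, the gene of the knock-in, was higher in KI than in WT control macrophages without overlap, at 7.10 to 11.5 CPM (counts scaled to library size by TMM) in males, against 0.277 to 0.550 CPM in WT, and at 1.43 to 2.36 CPM in females, against 0 to 0.193 CPM in WT. On NASH diet the genotypes overlapped, with 41.5 to 199.6 CPM in male KI NASH, 5.65 to 53.3 CPM in male WT NASH, 2.21 to 97.1 CPM in female KI NASH and 1.19 to 11.8 CPM in female WT NASH. In total liver on NASH diet the order was the other way in males, with 22.5 to 66.0 CPM in KI NASH and 126 to 562 CPM in WT NASH. The Kupffer cell markers summed to 12550 to 36840 CPM in macrophages, against 246.5 to 745.2 CPM in liver, so the sorted cells carried their defining markers. The libraries labelled male liver WT control 3 and 4 differed by less than the sampling noise and were counted as 1 sample, their mean, so this group has n = 3. That merged library, at 488 CPM of Xist and 0.317 CPM of Ddx3y, and the library labelled male macrophage WT control 4, at 1018 and 0.481 CPM, have the sex genes of females. Lyz2 stood under 500 CPM in 10 of 38 macrophage libraries, among them 3 of 4 female WT control and none of 6 female WT NASH libraries. Results that rest on these libraries are given with and without them. In liver no such cut on Lyz2 was made, and its values in female liver are given below. In male liver Lyz2 had 0.5044 to 27.54 CPM in KI control and 38.42 to 76.48 CPM in WT control. On NASH diet it had 1.116 to 55.05 CPM in male KI liver and 127 to 250.2 CPM in male WT liver. Genotype and Lyz2 level therefore cannot be told apart in male liver on either diet. The male WT diet groups did not overlap in Lyz2 either, and its part was not tested.

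All roles were expressed in both tissues, and at higher CPM in macrophages. Of each member's mean, the macrophage level was a median of 9.24-fold (1.77- to 61.8-fold) the liver level in male KI NASH, 11.3-fold (1.63- to 97.7-fold) in male KI control, 9.29-fold (1.41- to 139-fold) in male WT NASH and 13.4-fold (1.64- to 141-fold) in male WT control. In females the medians were 7.1-fold in KI NASH, 8.32-fold in KI control, 8.29-fold in WT NASH and 11.3-fold in WT control. The tissues differ in RNA kit and, in both sexes, in count table, so these ratios are descriptions with no test. Per kb of exon, Irf7 led in macrophages on control diet, at 279.7 CPM per kb in male WT control and 377.9 CPM per kb in female WT control, where Bst2, the membrane tether that holds virus at the cell surface, stood at 249.6 and 300.5 CPM per kb. On NASH diet Bst2 led in male KI macrophages (285.8 CPM per kb, Irf7 173.7), male WT macrophages (307.7, Irf7 217.7) and female WT macrophages (281.4, Irf7 252.9), while Irf7 led in female KI macrophages (334.4 CPM per kb, Bst2 326.7). The exon length used for Irf7, 3776 bases, is that of its whole annotated gene. Its level per kb may therefore be too low, and its order against Bst2 in macrophages is uncertain. In liver Bst2 led, at 152.3 CPM per kb in male WT control and 128.3 CPM per kb in female WT control, while Irf7 stood at 11.73 and 12.54 CPM per kb. Mx1 and Oas3 were at the low end in liver, with 0.1975 and 0.2521 CPM per kb in male WT control, and Oas1b in macrophages, with 2.931 CPM per kb in male WT control.

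Male KI macrophages answered the NASH diet with lower levels of the guanylate-binding proteins Gbp2b, Gbp7 and Gbp3 and of the transcription factor Irf7, the factor that amplifies type I interferon production. These 4 of 35 members fell and none rose, against 8.94% of all 13036 genes tested that fell, so the share of members that fell was near that of all genes. The members' median log2 fold change was -0.27, against 0.01 over all genes, and 25 of 35 were below 0. Counts of members and all adjusted p-values come from edgeR's quasi-likelihood test with Benjamini-Hochberg adjustment over all genes tested and a threshold of 0.05. Fold changes are log2. The value after ± is an approximate standard error, the size of the fold change divided by the square root of that test's F statistic.

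Gbp2b had 71.2, 118.0, 102.4, 99.3 and 107.5 CPM in male KI NASH macrophages, against 437.8, 173.5, 621.7 and 385.6 CPM in KI control. The groups did not overlap, and KI control 2 was low in its group. The log2 fold change was -2.02 ± 0.29 (adjusted p = 0.000583, edgeR). Gbp7 had 48.43, 69.58, 53.46, 85.42 and 73.38 CPM in male KI NASH and 119.8, 107.5, 159.4 and 139.0 CPM in KI control, again with no overlap. It fell by 0.99 ± 0.16 on the log2 scale (adjusted p = 0.000948, edgeR). Irf7 had 504.3, 620.7, 586.3, 775.6 and 793.4 CPM in male KI NASH, against 700.9, 1454, 1360 and 1350 CPM in KI control. KI control 1 lay within the NASH range and the other control libraries above it, and Irf7 fell by 0.89 ± 0.20 (adjusted p = 0.0052, edgeR). Gbp3 fell by 0.68 ± 0.15 (adjusted p = 0.00388, edgeR).

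**Figure D1:**
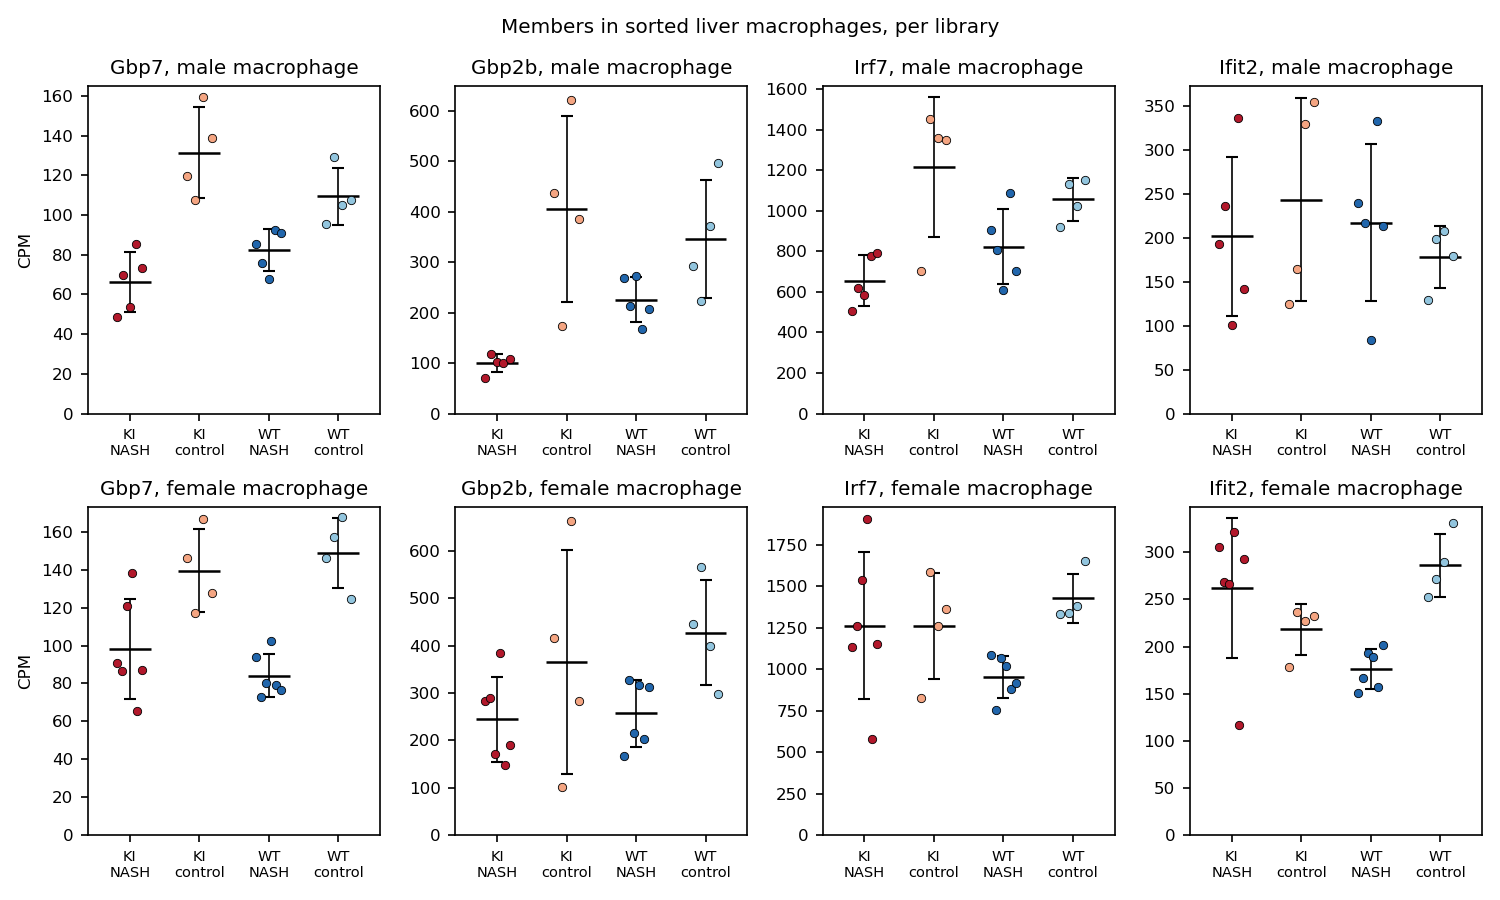
CPM of Gbp7, Gbp2b, Irf7 and Ifit2 (y axes, linear from 0) in sorted macrophages of males (upper row) and females (lower row), by group (x axes, KI NASH, KI control, WT NASH, WT control). Points are libraries, horizontal lines group means and error bars the SD. In male KI NASH, Gbp7 (48.43 to 85.42 CPM) and Gbp2b (71.2 to 118.0 CPM) lie below every KI control library.

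Beside the members, the other genes of the interferon pathway moved in both directions in these cells. Of 90 pathway genes listed by role, 78 were tested, of which 14 fell and 5 rose. Among those with the smallest p, Gbp8 (-1.18), Samhd1 (-0.84), Ly6e (-0.63), Nmi (-0.55), Psmb9 (-0.70) and Ptpn6 (-0.46) fell, Samhd1 being an enzyme that depletes nucleotides needed by viruses and Psmb9 a subunit of the immunoproteasome. Cd69 (3.63), Ccl5 (3.01), a chemokine, and the ligand gene Ifnb1 rose. Ifnb1, which encodes interferon beta, had 268, 57, 52, 153 and 13 counts in male KI NASH, against 0, 0, 2 and 0 counts in KI control (adjusted p = 0.00203, edgeR). It had 5, 16, 6, 111 and 105 counts in male WT NASH, against 7, 2, 4 and 2 counts in WT control, where the difference did not pass (adjusted p = 0.0517, edgeR). So Ifnb1 was higher in the same KI libraries in which Irf7, Gbp2b, Gbp3 and Gbp7 were lower. No fold change is given for Ifnb1 because the KI control group is at or near 0.

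Markers of other cells differed between the same libraries. The T and NK cell markers summed to 4.61 to 36.7 CPM in male KI NASH, against 0.344 to 0.734 CPM in KI control, hepatocyte markers to 409 to 2642 CPM against 172 to 269 CPM, and Kupffer cell markers to 12550 to 30030 CPM against 30480 to 34780 CPM. Siglech, a marker of plasmacytoid dendritic cells, stood at 0.808 to 10.3 CPM in KI NASH and 0 to 0.0459 CPM in KI control. Their part in the results was not tested. Without KI control 1, the control library lowest in the members, 11 of 35 members fell (7.3% of all genes fell) and their median was -0.46. Leaving out the lowest control library enlarges the fall by construction, so this count is no further support. With every library left out in turn and in every other alternative run, the 4 named members passed.

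**Figure D2:**
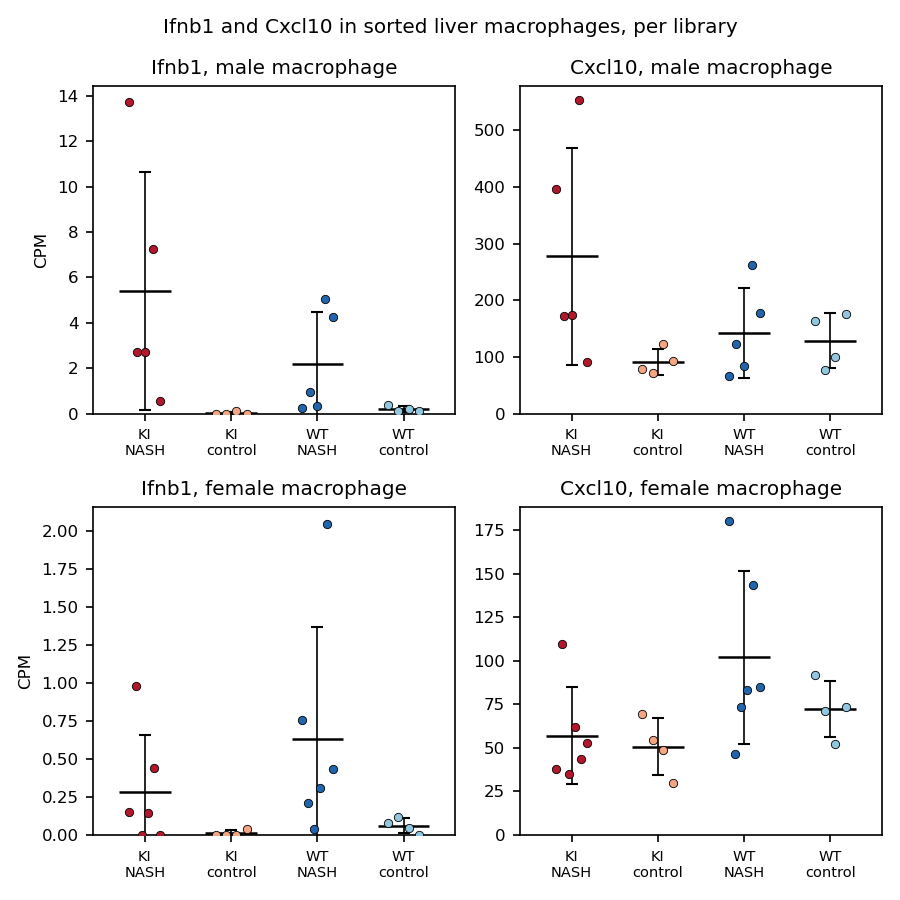
CPM of the ligand gene Ifnb1 and the chemokine gene Cxcl10 (y axes, linear from 0, different in each panel) in sorted macrophages of males (upper row) and females (lower row), by group (x axes). Points are libraries, lines group means and error bars the SD, drawn down to 0 where it would pass below. Male KI NASH libraries have 0.566 to 13.8 CPM of Ifnb1 and male KI control libraries 0 to 0.0917 CPM.

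In male WT macrophages none of 35 members passed on the NASH diet, against 8.19% of all genes. By edgeR 2 members had an unadjusted p under 0.05 and DESeq2 also called none. Gbp7 had 85.36, 75.56, 67.69, 92.32 and 90.81 CPM in WT NASH, against 95.35, 129.4, 105.2 and 107.7 CPM in WT control, which did not overlap but did not pass (-0.41 ± 0.15, adjusted p = 0.115, edgeR). Gbp2b differed by -0.61 (adjusted p = 0.187, edgeR). The diet effect in KI minus that in WT was -1.41 for Gbp2b (adjusted p = 0.183) and -0.58 for Gbp7 (adjusted p = 0.296), and none of 35 members or of all genes passed this test of the difference by edgeR, with 4 members at an unadjusted p under 0.05 and 1 called by DESeq2. The effect in KI is therefore not shown to differ from that in WT. Between genotypes on NASH diet, Gbp2b alone fell, with the 5 KI values above and 269.4, 213.3, 273.1, 166.9 and 206.6 CPM in WT NASH (-1.18 ± 0.27, adjusted p = 0.0269, edgeR). That is 1 of 35 members, against 0.506% of all genes that were lower. The KI values all lay below the WT values, and the call was lost in 7 of 23 alternatives. On control diet none of 35 members and none of all genes passed in male macrophages (edgeR; 1 member at an unadjusted p under 0.05, DESeq2 none), although 33 of 35 fold changes were above 0 with a median of 0.23, or 0.39 without KI control 1. Spp1, the gene of the knock-in, did not overlap between these groups and yet did not pass. The lack of calls here therefore does not show a lack of difference. Without the library labelled WT control 4, whose sex genes are those of females, the counts in male macrophages were the same.

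Female WT macrophages had lower levels of the IFIT genes, Gbp7 and Zbp1 and of other members on the NASH diet, but none of these calls held without the libraries low in Lyz2 that are described below. Of 35 members 9 fell and none rose, against 4.42% of all 12838 genes that fell. All 4 IFIT genes fell, and so did Gbp7 and Gbp3, the sensors Zbp1, which detects Z-form nucleic acids, and Ifih1, which detects long double-stranded RNA, and the transcription factor Irf9. None of the 7 OAS genes, of Isg15 and Usp18 or of the 6 other effectors passed. The calls were not equally firm: over 25 alternatives Ifit1 and Gbp7 lost theirs in 1, Zbp1 in 2, Ifit2 in 3, Irf9 in 8, Ifit3b in 10, Gbp3 in 19 and Ifit3 and Ifih1 in 21 each. The median of all 35 was -0.33, against -0.01 over all genes, with 30 of 35 below 0 and 22 at an unadjusted p under 0.05.

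Ifit1 had a lowest, median and highest value of 14.3, 20.9 and 25.4 CPM in the 6 female WT NASH libraries, against 39.48, 37.24, 34.01 and 42.28 CPM in WT control. Every NASH library lay below every control library, and the log2 fold change was -0.88 ± 0.20 (adjusted p = 0.0121, edgeR). Ifit2 ranged over 150.3, 177.9 and 201.3 CPM (lowest, median, highest) in WT NASH and had 252.7, 272.1, 289.2 and 330.7 CPM in WT control. It also did not overlap and fell by 0.70 ± 0.19 (adjusted p = 0.0223, edgeR). Ifit3b (-0.80) and Ifit3 (-0.74) fell as well. Gbp7 had 72.6, 79.6 and 102 CPM (lowest, median, highest) in WT NASH, against 146.1, 157.3, 167.7 and 124.6 CPM in WT control, and fell by 0.82 ± 0.16 (adjusted p = 0.00462, edgeR). Gbp3 had 167, 179 and 203 CPM (lowest, median, highest) in WT NASH and 226.5, 228.7, 238.3 and 237.7 CPM in WT control (-0.35 ± 0.11, adjusted p = 0.048, edgeR). Both GTPases thus lay wholly below their controls, Gbp7 by more. Zbp1 had 57.4, 77.2 and 83.9 CPM (lowest, median, highest) in WT NASH, against 103.4, 121.1, 123.8 and 139.2 CPM in WT control, and fell by 0.73 ± 0.18 (adjusted p = 0.0185, edgeR). Ifih1 had 106, 126 and 135 CPM in WT NASH and 148.9, 161.7, 148.9 and 156.0 CPM in WT control, a small difference of -0.31 ± 0.10 (adjusted p = 0.0465, edgeR). Irf9 had 81.8, 85.1 and 89.7 CPM in WT NASH and 92.24, 98.34, 111.8 and 101.2 CPM in WT control (-0.25 ± 0.07, adjusted p = 0.0314, edgeR). For each of these genes the female WT groups did not overlap.

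Of the other pathway genes 17 of 77 tested fell and 5 rose in the same comparison. Ifi47 (-0.76) and Irgm1 (-0.62), both GTPases induced by interferon gamma, fell, as did Rtp4 (-0.48), Samhd1 (-0.47), Psmb9 (-0.53), Tor3a (-0.38) and Ptpn6 (-0.37). Trim25 (0.67), a ubiquitin ligase that activates an RNA sensor, and Socs3 (1.18), an inhibitor of cytokine signalling, rose. Ifnb1 had 1 to 39 counts in WT NASH and 0 to 2 counts in WT control, at the edge of detection at this depth.

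The female WT comparison rests on libraries that also differ in Lyz2. Of the WT control libraries 3 had 92.1 to 168 CPM of Lyz2 and 1 had 2652 CPM, and the 6 WT NASH libraries had 2116 to 2843 CPM. Without the macrophage libraries under 500 CPM, the WT control group was 1 library, assumed to vary like the other groups, and none of 35 members passed, with 10 of all 13518 genes called (0.074%), and Oas1b, described next, was not called either, nor was any gene (0%), between genotypes on NASH diet. The median over members was -0.33 as before. The single control library with high Lyz2, WT control 2, lay among the other control libraries for Ifit1 (37.24 CPM), Gbp7 (157.3 CPM) and Zbp1 (121.1 CPM). Because 1 library cannot separate diet from Lyz2 level, the 2 cannot be told apart in this comparison. Hepatocyte markers summed to 210 to 1701 CPM in WT NASH and 115 to 348 CPM in WT control, and Kupffer cell markers to 25360 to 33720 CPM and 31970 to 36840 CPM. Their part in the result was not tested. The count ranged over 2 to 14 when single libraries were left out, 14 being the count without KI NASH 5 (4.64% of all genes fell then). KI NASH 5 is in neither WT group, so only the shared spread, the scaling and the genes kept changed.

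In female KI macrophages none of 35 members passed on the NASH diet, against 2.31% of all genes (edgeR; 6 at an unadjusted p under 0.05, DESeq2 called 2), and Ifit1 had 17.1, 33.9 and 41.1 CPM (lowest, median, highest) in KI NASH and 20.04, 37.11, 30.88 and 32.93 CPM in KI control. The diet effect in KI minus that in WT was 0.98 for Ifit1 (adjusted p = 0.22) and 0.96 for Ifit2 (adjusted p = 0.168). By edgeR none of 35 members passed this test, against 0.288% of all genes, with 15 at an unadjusted p under 0.05 and 1 called by DESeq2, so the diet effect is not shown to differ between the female genotypes with all libraries. Without KI NASH 5, 3 members rose in KI on the NASH diet, Rsad2 (0.83), Mx2 (0.75) and Mx1 (0.79), against 0.752% of all genes that rose. In the test of the difference 4 members were then higher (0.258% of all genes were higher): Ifit2 (1.13), Cmpk2 (0.87), Ifit1 (1.12) and Ifit3 (1.15). The libraries under 500 CPM of Lyz2 are 2 of 6 KI NASH and 3 of 4 KI control libraries. Without them no member passed in KI on the NASH diet or in the test of the difference, and the members' median was -0.09 in KI, against 0.14 with all libraries, and 0.24 for the difference, against 0.44 with all libraries.

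On NASH diet female KI macrophages were higher than female WT macrophages in Oas1b alone, 1 of 35 members, against 0.28% of all genes that were higher. Oas1b had 6.80, 8.71 and 16.2 CPM (lowest, median, highest) in KI NASH, against 5.09, 5.66 and 6.52 CPM in WT NASH, without overlap (0.88 ± 0.19, adjusted p = 0.0476, edgeR). Of the 35 members 29 were above 0 and 19 had an unadjusted p under 0.05, with a median of 0.30. DESeq2 called 5. The Oas1b call was lost in 20 of 25 alternatives, and without the libraries under 500 CPM of Lyz2, among them KI NASH 3 and 4, no member passed and the median was 0.13. KI NASH 5 had the lowest mean of the members among all female macrophage libraries, at 6.34 log2 CPM against 7.05 to 7.43 in the other KI NASH libraries. It also had the lowest Kupffer cell marker sum, 16670 CPM against 24630 to 30860 CPM, and the highest Spp1, 97.1 CPM against 2.21 to 12.9 CPM. Without it 13 of 35 members were higher in KI (0.736% of all genes were higher), among them all 4 IFIT genes, led by Ifit2 (0.73, adjusted p = 0.00337, edgeR), with Stat2 (0.58), Oas3 (0.79), Oasl2 (0.63) and Cmpk2 (0.48). Because KI NASH 5 was the lowest in the members, leaving it out raises KI by construction. The count therefore depends both on KI NASH 5 and on the low-Lyz2 libraries, and why these stand apart was not tested. On control diet none of 35 members passed between female genotypes, against 4.64% of all genes (edgeR; 3 at an unadjusted p under 0.05, DESeq2 called 1). Without KI NASH 5, Rsad2 (-0.71) and Ifit2 (-0.39) were lower in KI there, against 2.73% of all genes that were lower. KI NASH 5 is in neither control group, so only the shared spread, the scaling and the genes kept changed.

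**Figure D3:**
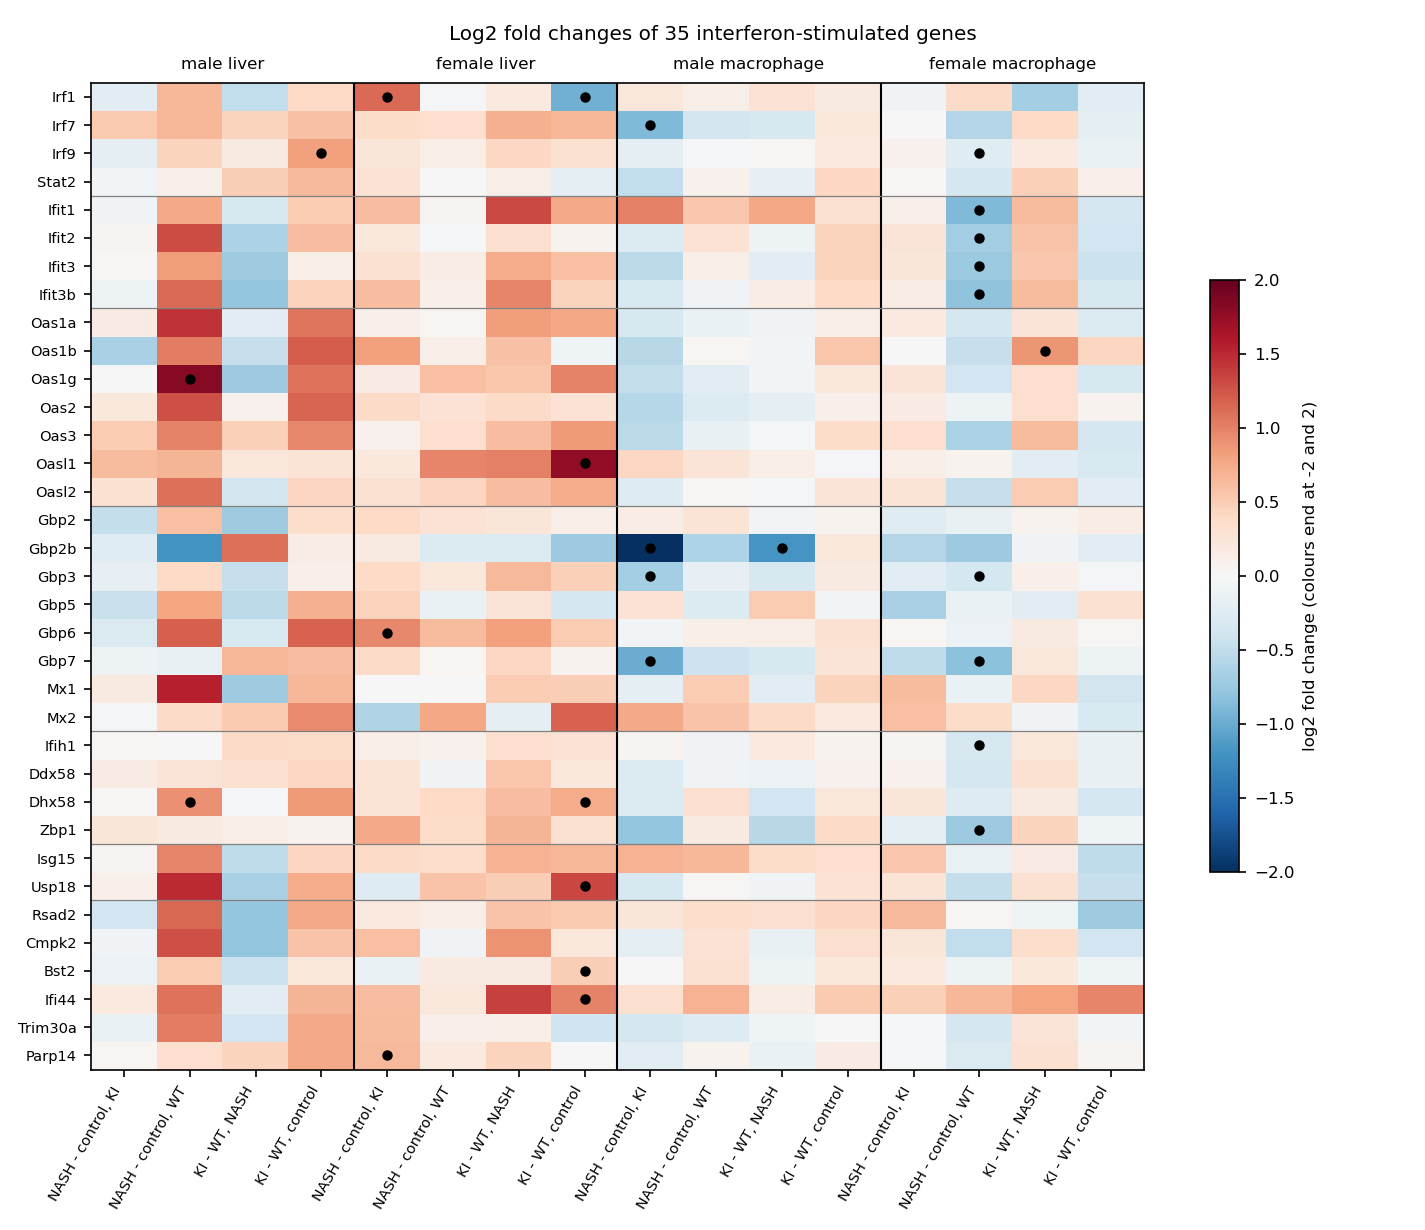
Log2 fold changes (colour, red above 0, blue below 0, ending at -2 and 2) of the 35 members (rows, by role) in 4 comparisons (columns) of each tissue and sex. Black dots mark adjusted p under 0.05 by edgeR. The 4 IFIT genes are blue in female WT macrophages (NASH minus control), and the male KI macrophage column (NASH minus control) ends at -2.02 for Gbp2b.

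In male liver the members' rise on the NASH diet in WT depended on the control libraries it was set against. With all 3 control samples 2 of 35 members rose, Oas1g and Dhx58, a regulator of RNA sensing, against 11.3% of all 12988 genes that rose, a lower share among the members. Oas1g had 5.19, 2.60, 1.77 and 1.85 CPM in WT NASH, against 0.481, 0.631 and 1.27 CPM in WT control (1.82 ± 0.59, adjusted p = 0.0417, edgeR). Dhx58 had 21.51, 21.33, 14.40 and 15.48 CPM in WT NASH and 7.940, 6.878 and 14.07 CPM in WT control (0.91 ± 0.30, adjusted p = 0.0455, edgeR). For both genes the groups did not overlap, and the highest control value was that of the merged library. Over 21 alternatives the call was lost in 7 for Oas1g and in 11 for Dhx58. The median over members was 0.84, against -0.01 over all genes, with 33 of 35 above 0.

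The merged control library, which has the sex genes of females, was the high one of its group for most members. Ifit1 had 12.96, 17.02, 9.41 and 9.43 CPM in male WT NASH liver, against 2.49 and 1.49 CPM in WT control 1 and 2 and 17.5 CPM in the merged library. Irf7 had 84.98, 91.12, 41.34 and 62.71 CPM in WT NASH, against 23.26, 29.52 and 80.09 CPM in WT control in the same order. The merged library thus lay within or above the NASH range, and the other control libraries below it. Without it 26 of 35 members rose, against 13.8% of all 13248 genes that rose, and the median was 1.74. The risen members then included all 4 IFIT genes (2.00 to 2.63), all 7 OAS genes (1.30 to 2.32), Isg15 (1.88), Usp18 (2.49), Cmpk2 (2.22), Rsad2 (1.96) and Ifi44 (2.89). Stat2, Ifih1, Bst2, Parp14, Mx2, Gbp2, Gbp2b, Gbp5 and Gbp7 did not pass. Hepatocyte markers summed to 84440 to 92860 CPM in WT NASH, and to 151100 and 181700 CPM in WT control 1 and 2 and 111300 CPM in the merged library. Recruited monocyte markers summed to 27.3 to 70.2 CPM in WT NASH and 7.39 to 18.4 CPM in WT control. Plasmacytoid dendritic cell markers summed to 76.7 to 418 CPM in WT NASH and 17.0 to 27.1 CPM in WT control. Most of that difference was Ly6d, at 59.69 to 394.3 CPM in WT NASH and 0.5732 to 4.435 CPM in WT control, while Siglech had 0.4421 to 1.483 CPM in WT NASH and 0.1901 to 0.5159 CPM in WT control. Their part in the result was not tested. Of 75 other pathway genes tested with all samples, 11 rose and 2 fell, the risen ones including Tor3a (1.47), Lgals3bp (1.03), Il10rb (1.05), Slfn5 (0.94), Ifngr2 (0.69), Ciita (1.71), Ptpn6 (0.63) and Ifi204 (1.10), while Irf3 (-0.33) and Irf2 (-0.69) fell.

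In male KI liver no member passed on the NASH diet, and none of all genes did (edgeR; 0 members at an unadjusted p under 0.05, DESeq2 none). Ifit1 had 15.00, 3.14, 14.64 and 5.94 CPM in male KI NASH, against 14.58, 8.75, 7.33 and 10.26 CPM in KI control. The diet effect in KI minus that in WT passed for no member (1.13% of all genes; edgeR, 9 at an unadjusted p under 0.05, DESeq2 called 1). Without the merged library 9 members had a lower diet effect in KI (2.54% of all genes were lower), led by Cmpk2 (-2.29), Rsad2 (-2.34) and Trim30a (-1.81).

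Between genotypes on control diet, male KI liver was higher in Irf9, a DNA-binding part of the complex that type I interferon activates, 1 of 35 members, against 2.74% of all genes that were higher. Irf9 had 50.31, 45.83, 33.35 and 51.28 CPM in KI control, against 20.93, 20.41 and 35.10 CPM in WT control (0.83 ± 0.21, adjusted p = 0.044, edgeR). The merged WT library lay within the KI range. The call was lost in 11 of 21 alternatives. All 35 fold changes were above 0, with a median of 0.62, or 1.33 without the merged library. Dtx3l (0.57), which works with Parp9, was among the pathway genes that passed. Without the merged library 11 members were higher in KI (2.52% of all genes were higher), among them Irf9 (1.13), Stat2 (0.95), Ifit1 (2.38) and Gbp6 (2.82). On NASH diet no member passed between male genotypes in liver, although 37% of all genes did (edgeR; 5 members at an unadjusted p under 0.05, DESeq2 none). Without the merged library Stat2 (0.49) and Gbp7 (0.67) were higher in KI, against 20.5% of all genes, and Cmpk2 (-0.78) was lower, against 19.1% of all genes. The merged library is in neither NASH group, so only the shared spread, the scaling and the genes kept changed. With all samples 10 pathway genes were higher and 9 lower in KI on NASH diet, the receptor genes Il10rb (-1.11), Ifnar2 (-0.50), Ifngr2 (-0.64) and Ifngr1 (-0.60) falling and the receptor gene Ifnar1 (0.31) rising. Falls were also found for Tmem173 (-1.13), the gene of the DNA-sensing adaptor STING, and for Tor3a (-0.76), while Parp9 (0.56), Nlrc5 (0.83), Dtx3l (0.52), Jak1 (0.36) and Irf2 (0.69) rose.

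**Figure D4:**
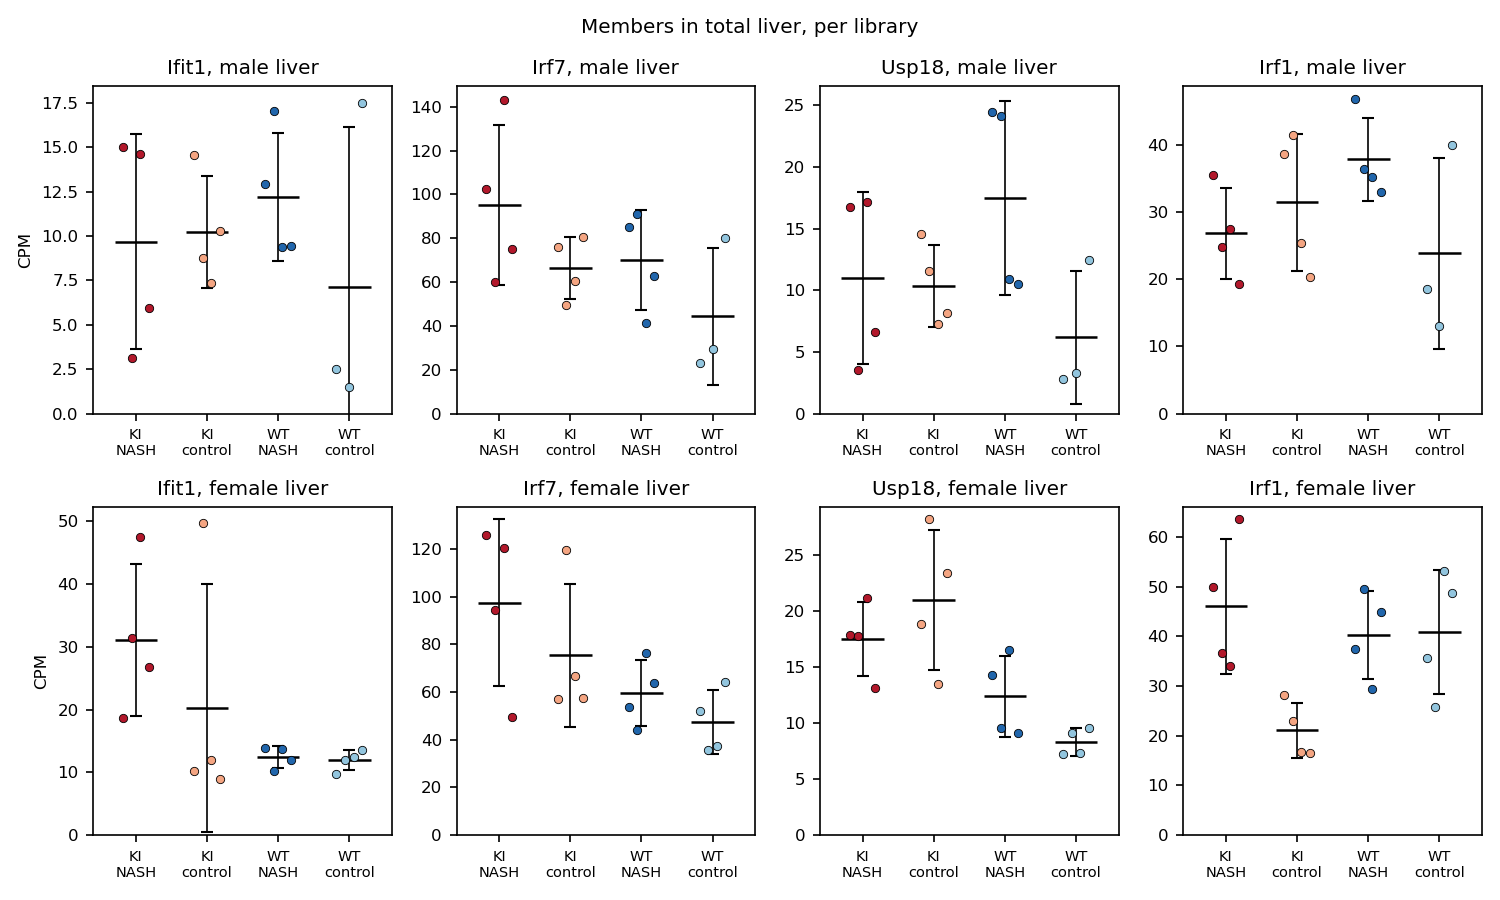
CPM of Ifit1, Irf7, Usp18 and Irf1 (y axes, linear from 0) in total liver of males (upper row) and females (lower row), by group (x axes). Points are libraries, lines group means and error bars the SD, which end at 0 where they would pass below. In male WT control 1 library lies apart at 17.5 CPM of Ifit1, with the others at 1.49 and 2.49 CPM.

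In female liver the knock-in on control diet was the comparison with the most members called. Of 35 members 5 were higher in KI, against 4.04% of all 13315 genes that were higher, and 1 was lower, against 3.53% of all genes that were lower. Usp18 had 18.87, 28.23, 13.52 and 23.46 CPM in KI control, against 7.24, 9.09, 7.32 and 9.61 CPM in WT control. The groups did not overlap, and Usp18 was 1.34 ± 0.24 higher (adjusted p = 0.00591, edgeR), in all 20 alternatives run. Oasl1, an inhibitor of Irf7 translation in mouse cells, had 8.24, 42.83, 16.95 and 10.56 CPM in KI control and 6.96, 3.24, 4.66 and 8.12 CPM in WT control (1.78 ± 0.50, adjusted p = 0.0416, edgeR). Dhx58 had 13.53, 25.15, 12.53 and 15.64 CPM in KI control, against 9.29, 8.66, 9.60 and 12.54 CPM in WT control (0.74 ± 0.20, adjusted p = 0.0334, edgeR). Both KI control 2 values were the highest of the group. Bst2 had 144.8, 197.1, 156.0 and 151.2 CPM in KI control and 121.9, 119.3, 99.13 and 123.3 CPM in WT control (0.49 ± 0.12, adjusted p = 0.0232, edgeR). Ifi44 had 9.35, 25.39, 12.08 and 13.81 CPM in KI control, against 6.35, 6.52, 7.83 and 9.92 CPM in WT control (0.99 ± 0.29, adjusted p = 0.0484, edgeR). Irf1, a factor that interferon gamma induces, went the other way, with 28.11, 22.98, 16.75 and 16.49 CPM in KI control and 35.66, 25.84, 53.04 and 48.75 CPM in WT control (-0.95 ± 0.26, adjusted p = 0.0359, edgeR). Dhx58 and Ifi44 overlapped between groups by a single WT library, WT control 4, and Irf1 by WT control 2, while Oasl1 and Bst2 did not overlap. Over 20 alternatives the call was lost in 3 for Bst2, 6 for Dhx58, 7 for Irf1, 8 for Oasl1 and 15 for Ifi44.

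KI control 2 was the highest KI control library for each of the 5 risen members, and had 49.8 CPM of Ifit1 against 8.96 to 12.0 CPM in the other KI control libraries. Without it Usp18 alone passed (1.16, adjusted p = 0.0152, edgeR), and 2.8% of all genes were higher, while the members' median was 0.13, against 0.48 with all libraries. Of 76 other pathway genes tested with all libraries, 9 were higher and 6 lower in KI, among them Ifitm3 (0.66), Phf11d (1.09), Ifi27 (1.07), Ifi35 (0.59), Xaf1 (0.89) and Nmi (0.55) higher, and Mavs (-0.66), Socs1 (-1.34), Ifnar1 (-0.44) and Cxcl11 (-1.71) lower. Ifnar1 encodes a chain of the type I receptor, Mavs the adaptor of RNA sensors and Socs1 an inhibitor of the pathway. Spp1 itself overlapped between the genotypes in these livers, with 19.0 to 46.6 CPM in female KI control, against 23.4 to 31.2 CPM in female WT control. On NASH diet it had 26.1 to 52.9 CPM in female KI liver and 49.3 to 95.6 CPM in female WT liver. Lyz2 did not overlap on control diet, at 22.66 to 44.99 CPM in female KI liver and 1.095 to 2.48 CPM in female WT liver. Genotype and Lyz2 level therefore cannot be told apart in the calls on control diet, that of Usp18 included. In female KI NASH liver Lyz2 was split, at 1.231, 1.174, 62.86 and 38.13 CPM, and its part was not tested.

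Female KI liver rose on the NASH diet in Irf1, Gbp6 and Parp14, an ADP-ribosyltransferase, 3 of 35 members, against 4.21% of all genes that rose. Irf1 had 49.95, 36.70, 33.92 and 63.51 CPM in KI NASH, all above the KI control values given above (1.13 ± 0.26, adjusted p = 0.0164, edgeR). Parp14 had 72.49, 76.12, 95.64 and 84.53 CPM in KI NASH, against 48.09, 73.96, 43.05 and 43.72 CPM in KI control (0.65 ± 0.16, adjusted p = 0.0229, edgeR). Gbp6 had 15.04, 22.71, 23.24 and 16.29 CPM in KI NASH and 8.29, 15.80, 8.40 and 7.25 CPM in KI control (0.96 ± 0.27, adjusted p = 0.0402, edgeR). KI control 2 lay within the NASH range for Parp14 and Gbp6. Over 20 alternatives the call was lost in 3 for Irf1, 4 for Parp14 and 8 for Gbp6. Without KI control 2 the members' median was 0.65, against 0.31 with all libraries, and 12 members rose (3.74% of all genes rose), among them Ifit1 (1.58), Zbp1 (1.13), Ifit3b (1.11) and Cmpk2 (1.00). Of the pathway genes 13 rose and none fell with all libraries, including the receptor genes Ifngr2 (0.61), Ifnar1 (0.54) and Il10rb (0.51), Dtx3l (0.84), Tor3a (0.92), Ptpn6 (0.53), Gbp10 (1.49), Cd274 (0.91) and the chemokine genes Cxcl11 (1.88) and Cxcl10 (1.29).

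In female WT liver no member passed on the NASH diet, against 0.0526% of all genes (edgeR; 3 at an unadjusted p under 0.05, DESeq2 none). On NASH diet no member passed between female genotypes by edgeR, against 0.0901% of all genes, but 17 had an unadjusted p under 0.05, 33 of 35 were above 0 and the median was 0.56. DESeq2 called 1. Ifit1 had 18.74, 31.42, 47.52 and 26.78 CPM in KI NASH, against 13.89, 10.14, 13.66 and 11.98 CPM in WT NASH, without overlap, and did not pass (1.33 ± 0.44, adjusted p = 0.245, edgeR). The diet effect in KI minus that in WT passed for no member in female liver (4.77% of all genes; edgeR, 4 at an unadjusted p under 0.05, DESeq2 called 1). Without KI control 2, the diet effect was higher in KI for Ifit1 (1.53) and Parp14 (0.67), against 2.17% of all genes. Ifit1 (1.33) and Ifi44 (1.37) then also passed as higher in KI NASH than in WT NASH (0.0967% of all genes were higher). KI control 2 is in neither NASH group, so only the shared spread, the scaling and the genes kept changed there.

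The difference between sexes was tested directly. In liver each sex has its own count table, so sex and table cannot be told apart. Lyz2 in WT control liver also differed, at 38.42 to 76.48 CPM in males and 1.095 to 2.48 CPM in females. In liver the KI effect on the NASH diet was higher in females than in males for 2 of 35 members, against 5.26% of all genes that were higher in this test. Cmpk2, a nucleotide kinase encoded next to Rsad2, had 6.37, 9.57, 13.19 and 7.64 CPM in female KI NASH and 5.39, 5.78, 4.18 and 4.47 CPM in female WT NASH, and 5.97, 2.57, 5.85 and 3.94 CPM in male KI NASH and 12.65, 7.46, 5.94 and 5.78 CPM in male WT NASH. KI libraries were thus mostly higher in females and mostly lower in males, and the difference of the log2 effects was 1.66 ± 0.49 (adjusted p = 0.0244, edgeR). Ifit3b had 6.80, 8.67, 8.90 and 5.81 CPM in female KI NASH and 4.87, 4.21, 3.26 and 3.08 CPM in female WT NASH, and 3.38, 1.57, 5.21 and 2.32 CPM in male KI NASH and 8.81, 5.25, 3.67 and 3.89 CPM in male WT NASH (1.73 ± 0.58, adjusted p = 0.0459, edgeR). Over 35 alternatives the call was lost in 4 for Cmpk2 and in 16 for Ifit3b. None of 35 members passed for the diet effect in WT (1.68% of all genes) or in KI (0.596%) in liver, with 4 members each at an unadjusted p under 0.05 and 0 and 1 called by DESeq2. Without the merged male WT control library, 5 members had a lower diet effect in WT in females than in males (2.56% of all genes were lower), and 4 had a higher KI effect on the NASH diet (5.8% of all genes were higher). The KI effect on the NASH diet does not use that library, so only the shared spread, the scaling and the genes kept changed. In macrophages none passed for the diet effect in WT (0.0224% of all genes), the diet effect in KI (0.68%) or the KI effect on the NASH diet (4.37%), with 6, 11 and 12 members at an unadjusted p under 0.05 and 0, 0 and 3 called by DESeq2.

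Isg15, Irf7, Stat2, Gbp2 and Bst2 show how the roles compare within the same libraries. In male macrophages Isg15 had 95.01, 77.23, 52.46, 155.8 and 36.89 CPM in KI NASH and 20.56, 47.56, 68.93 and 68.49 CPM in KI control, and 60.85, 67.69, 24.49, 115.0 and 54.84 CPM in WT NASH and 34.59, 41.92, 43.01 and 43.11 CPM in WT control. Its groups overlapped and it did not pass (0.70 in KI, adjusted p = 0.255, and 0.67 in WT, adjusted p = 0.358), while Irf7 in the same KI libraries fell. Irf7 had 906.2, 806.9, 608.3, 1086 and 703.1 CPM in male WT NASH, against 919.4, 1132, 1022 and 1151 CPM in WT control. Stat2 had 138.4, 266.3, 186.4, 226.0 and 239.4 CPM in male KI NASH and 189.0, 253.8, 385.5 and 358.4 CPM in KI control (-0.49, adjusted p = 0.0876), and 193.7 to 276.4 CPM in WT NASH and 185.2 to 257.7 CPM in WT control. Gbp2 had 104.1, 248.8, 112.1, 146.6 and 75.25 CPM in male KI NASH and 112.7, 106.6, 158.0 and 118.5 CPM in KI control, so its groups overlapped while those of Gbp2b, its neighbour on chromosome 3, did not. Bst2 had 226.5, 213.4, 259.3, 313.7 and 277.5 CPM in male KI NASH and 169.8, 304.2, 280.1 and 287.3 CPM in KI control (-0.01, adjusted p = 0.965).

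In female macrophages Irf7 had 581, 1206 and 1909 CPM (lowest, median, highest) in KI NASH and 826.0, 1588, 1260 and 1361 CPM in KI control, and 755, 969 and 1087 CPM in WT NASH and 1335, 1338, 1384 and 1650 CPM in WT control. The WT groups did not overlap, but the fall of 0.58 did not pass (adjusted p = 0.0907, edgeR). Isg15 had 28.8, 61.4 and 75.0 CPM in KI NASH and 26.57, 53.18, 41.91 and 39.46 CPM in KI control, and 33.1, 53.1 and 70.1 CPM in WT NASH and 57.81, 51.69, 49.57 and 70.19 CPM in WT control. Stat2 ranged over 201, 309 and 465 CPM in KI NASH and had 270.4, 339.1, 330.2 and 327.5 CPM in KI control, and 213, 231 and 259 CPM in WT NASH and 231.4, 273.6, 361.9 and 310.2 CPM in WT control. For Isg15 and Stat2 the groups overlapped in both genotypes. Gbp2 varied little in WT NASH, at 118, 121 and 125 CPM, against 125.5, 121.0, 141.4 and 152.7 CPM in WT control, and had 98.7, 123 and 169 CPM in KI NASH and 125.3, 212.9, 155.5 and 106.3 CPM in KI control. Bst2 had 189, 296 and 382 CPM in KI NASH and 171.3, 374.5, 243.9 and 238.1 CPM in KI control, and 221, 248 and 318 CPM in WT NASH and 266.3, 244.5, 252.0 and 322.6 CPM in WT control. Neither Gbp2 nor Bst2 passed in any comparison of female macrophages.

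In male liver Isg15 had 12.04, 4.98, 10.59 and 5.34 CPM in KI NASH and 11.27, 8.09, 5.61 and 7.01 CPM in KI control, and 16.49, 16.36, 7.22 and 7.03 CPM in WT NASH and 3.21, 3.15 and 11.41 CPM in WT control. WT NASH 1 and 2 were high and WT control 1 and 2 low, with the merged library between them. Irf7 had 102.6, 60.02, 143.0 and 74.94 CPM in KI NASH and 75.79, 49.39, 60.39 and 80.43 CPM in KI control. Stat2 had 84.64, 87.21, 82.90 and 53.41 CPM in KI NASH and 93.41, 81.51, 59.33 and 85.47 CPM in KI control, and 56.62, 55.20, 52.31 and 55.72 CPM in WT NASH and 36.97, 45.63 and 70.21 CPM in WT control. KI was higher than WT on NASH diet in 3 of 4 libraries (0.49, adjusted p = 0.0627, edgeR). Gbp2 had 11.72, 5.71, 3.86 and 7.47 CPM in KI NASH and 17.41, 11.22, 4.90 and 6.22 CPM in KI control, and 13.44, 8.57, 15.39 and 9.55 CPM in WT NASH and 6.58, 2.64 and 14.07 CPM in WT control. Bst2 had 150.5, 129.2, 161.4 and 143.5 CPM in KI NASH and 171.5, 161.3, 159.6 and 144.7 CPM in KI control, and 254.5, 256.2, 127.3 and 147.9 CPM in WT NASH and 148.0, 131.4 and 133.2 CPM in WT control, so that WT NASH 1 and 2 stood above every other library.

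In female liver Isg15 had 7.34, 11.11, 16.80 and 8.17 CPM in KI NASH and 5.73, 16.00, 5.82 and 5.65 CPM in KI control, and 9.14, 4.36, 6.39 and 6.97 CPM in WT NASH and 5.60, 4.57, 6.06 and 4.83 CPM in WT control. Irf7 had 126.0, 94.49, 120.5 and 49.36 CPM in KI NASH and 57.22, 119.7, 66.96 and 57.64 CPM in KI control, and 53.69, 43.96, 76.55 and 64.00 CPM in WT NASH and 52.05, 35.50, 37.52 and 64.35 CPM in WT control. KI control 2 was high in its group for both genes. Stat2 had 74.09, 90.38, 103.4 and 110.8 CPM in KI NASH and 95.29, 100.6, 51.10 and 62.21 CPM in KI control, and 64.54 to 129.2 CPM in WT NASH and 66.72 to 107.2 CPM in WT control. Gbp2 had 18.74, 15.12, 14.79 and 20.76 CPM in KI NASH and 11.24, 12.77, 14.27 and 14.27 CPM in KI control, which did not overlap but did not pass (0.40, adjusted p = 0.189, edgeR). Bst2 had 137.0 to 165.1 CPM in KI NASH and, as above, 144.8 to 197.1 CPM in KI control, with 117.7 to 146.3 CPM in WT NASH. In this tissue Bst2 alone of the 5 passed a test, on control diet.

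**Figure D5:**
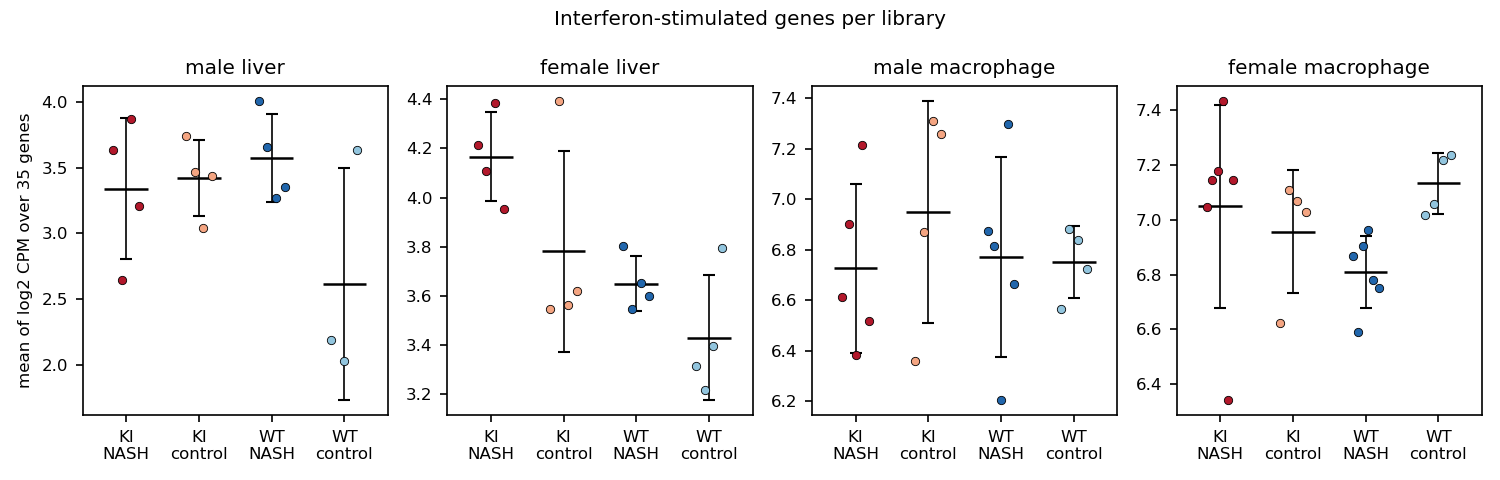
Mean of log2 CPM over the 35 members (y axes, which do not start at 0 and differ between panels) per library, by group (x axes) in each tissue and sex. Points are libraries, lines group means and error bars the SD. In male liver 1 WT control library stands at 3.63 and the others at 2.03 and 2.19, and in female macrophages KI NASH 5 stands at 6.34.

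Most members went up and down together from library to library within a group. After each group's mean was taken off, the median correlation over the 595 pairs of members was 0.73 across the 15 male liver samples, 0.46 across 16 female liver, 0.61 across 18 male macrophage and 0.64 across 20 female macrophage libraries. The median between members and all other genes lay between -0.02 and 0.01. These are descriptions across libraries that also share depth and cell content, with no test. Ifit3 was among the members closest to the rest, with a median correlation with the other members of 0.83 and 0.69 in male and female liver and of 0.78 and 0.82 in male and female macrophages. Gbp2b stood apart, at -0.04, -0.22, -0.14 and -0.04 in the same order, and Irf1 was loosely tied in female liver (0.02), male macrophages (0.18) and female macrophages (0.24) but not in male liver (0.60). Gbp2b and Irf1, which gave calls of their own in male macrophages and in female liver, were thus among the members that follow the shared movement least.

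The ligand genes were at the edge of detection or below it in liver. Ifnb1, Ifna2 and Ifna4 had no counts in any liver library, and Ifng, the gene of interferon gamma, had 0 to 4 counts. These values cannot show a difference between liver groups at this depth. In macrophages Ifnb1 reached 268 counts in male KI NASH 1, the highest of all libraries.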

How the data were processed

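RNA of liver (extracted with an illustra kit) and of sorted macrophages (Qiagen kit) was made into stranded mRNA libraries, per the labels' protocols. Raw counts by gene symbol were deposited by the authors in 3 tables, for male liver, female liver and macrophages, on genome build mm10, per the submitters' processing notes. For aligner, counting program and strand setting, none is given in the sources used here. How reads of paralogs, overlapping and antisense genes were counted is therefore unknown.

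The members and lists were chosen with earlier results of these data known. The tests used edgeR 4.0.16 (R 4.3.3) with library sizes scaled by TMM, genes kept by filterByExpr (minimum count 10, minimum total 15), quasi-likelihood models holding 1 coefficient for each group, and p-values adjusted by Benjamini and Hochberg's method over every gene kept. Each tissue and sex was fitted alone, and both sexes of a tissue together for the female minus male differences, 26 comparisons in all. The fit was tested on simulated counts. The labels name no litter or culture beyond a replicate number, so p-values measure the spread between these libraries. Male liver WT control 3 and 4 had a mean chi-square of 0.067 per gene over 3359 genes with a summed count of 20 to 200, against at least 2.05 in the other 121 pairs within groups, and entered as their rounded mean. Other tools were DESeq2 1.42.0, pandas 2.3.3 and matplotlib 3.10.9. Positions come from GENCODE M21 and promoters from RefSeq, both of the assembly of mm10. Correlations used log2 CPM with a prior count of 2.

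Values per library are given for Isg15, Irf7, Stat2, Gbp2 and Bst2 in every tissue and sex and, per comparison, for called members with the smallest p (at most 8, and at most 2 of a role). Other called members are named with their fold change, and pathway genes up to 10 per comparison, of which some results are not reported here. Ifit1, Gbp7, Gbp2b and Ifnb1 were added where a result turned on them, after their values were seen. Alternatives were DESeq2, RLE scaling (median-of-ratios size factors), no filter on low counts, a replicate block, each library left out, male liver WT control 3 and 4 kept apart or replaced by 4 and, chosen after seeing the data, macrophage libraries with Lyz2 under 500 CPM left out. Leaving out the library lowest or highest in the members shifts its group by construction, so counts without it are no further support. A library left out alters a comparison that does not use it only through the shared spread, the scaling and the genes kept.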

Additional observations from a re-analysis of the deposited data

Results flagged for a closer look

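Single libraries that stood far from the rest of their group were looked for in 164 pairs of a named member and a group by Dixon's ratio, and 16 were found. Male liver WT control, the group with the merged library, was below the group size examined and is not among them. Chance alone gives about 1 in 20.

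In female liver KI control 2 stood apart for Isg15 (16.0 CPM, others 5.65 to 5.82), Irf7 (119.7 CPM, others 57.22 to 66.96), Gbp6 (15.8 CPM, others 7.25 to 8.40) and Parp14 (73.96 CPM, others 43.05 to 48.09), in each case as the highest of the group. WT control 3 was low for Bst2 (99.13 CPM, others 119.3 to 123.3), and WT control 4 was high for Parp14 (62.41 CPM, others 48.5 to 50.26). In male liver KI NASH 4 was low for Stat2 (53.41 CPM, others 82.9 to 87.21).

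In male macrophages KI control 1 was low for Irf7 (700.9 CPM, others 1350 to 1454), WT control 1 was low for Isg15 (34.59 CPM, others 41.92 to 43.11) and WT control 2 was high for Bst2 (254.7 CPM, others 212.2 to 217.8). In female macrophages KI NASH 5 was low for Ifit2 (117.0 CPM, others 266.5 to 322.0), KI control 1 was low for Ifit2 (178.1 CPM, others 227.5 to 236.2) and for Stat2 (270.4 CPM, others 327.5 to 339.1), and KI control 3 was high for Gbp3 (299.2 CPM, others 201.1 to 203.6). WT NASH 4 was high for Bst2 (317.5 CPM, others 221.1 to 255.2), and WT control 4 was high for Irf7 (1650 CPM, others 1335 to 1384).

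The KI effect on the NASH diet differed between the sexes in liver for Ifit3b, by 1.73 on the log2 scale (female minus male), and for Cmpk2, by 1.66, in the edgeR test of the difference itself. Sex and count table cannot be told apart in liver.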

How the results depend on the processing

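Of 29 calls of a member in a comparison, 5 held in every alternative run: Gbp2b, Gbp3, Gbp7 and Irf7 in male KI macrophages on the NASH diet, and Usp18 in female liver on control diet. No call changed direction, and 529 of 679 recomputed counts of called members lay within 1.5 times the reported count. That number includes counts of 0 that stayed at 0, so it says little of the comparisons with calls. Some of those moved widely, such as 0 to 26 in male liver NASH against control in WT with single libraries left out. The cause of the changes below was not tested.

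With DESeq2 the count was 8 for male liver NASH against control in WT, 5 for male liver KI against WT on control, 5 for female macrophage and 1 for female liver KI against WT on NASH, 2 for female macrophage NASH against control in KI, 1 for female macrophage KI against WT on control, and 1 for the diet effect in KI minus that in WT in each tissue and sex. For the female minus male differences DESeq2 gave 4 for the KI effect on NASH in liver, 3 for it in macrophages and 1 for the diet effect in KI in liver. For female macrophage KI against WT on NASH, RLE scaling, no filter on low counts, the replicate block and the low-Lyz2 libraries left out each gave 0. The last also gave 0 for female macrophage NASH against control in WT. RLE scaling gave 1 for the female minus male KI effect on NASH in macrophages, and no filter gave 1 for that in liver. Kept apart, WT control 3 and 4 left 1 call in male liver NASH against control in WT.

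Same-numbered libraries deviated together weakly or not at all (median correlations -0.04 to 0.05). In males the medians were 0.039 in liver and 0.047 in macrophages, against -0.003 and -0.013 for other numbers. Of the libraries, 2 of 16 female liver, 4 of 20 female macrophage, 7 of 15 male liver and 7 of 18 male macrophage ones correlated best with their own number. The share expected by chance was not computed, so whether the numbers pair the samples was not tested. With the number as a replicate block the count was 4 for male liver NASH against control in WT, 0 for male liver and 3 for female liver KI against WT on control, 4 for female macrophage NASH against control in WT, and 1 each in macrophages for the female minus male diet effect in KI and KI effect on NASH.

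Without the merged male liver WT control library the counts were 26 for NASH against control in WT, 11 for KI against WT on control, 3 for KI against WT on NASH, 9 for the diet effect in KI minus that in WT, and, for female minus male, 5 for the diet effect in WT and 4 for the KI effect on NASH. With each other single library left out, male liver gave 0 to 7 for NASH against control in WT, 0 to 2 for KI against WT on NASH and 0 to 1 for KI against WT on control. Female liver gave 0 to 12 for NASH against control in KI, 0 to 2 for KI against WT on NASH, 1 to 7 for KI against WT on control and 0 to 2 for the diet effect in KI minus that in WT, the extremes of 12, 2, 1 and 2 being without KI control 2. Male macrophages gave 4 to 11 for NASH against control in KI, 11 without KI control 1, and 0 to 1 for KI against WT on NASH. Female macrophages gave 2 to 14 for NASH against control in WT, 0 to 3 for NASH against control in KI, 0 to 13 for KI against WT on NASH, 0 to 2 for KI against WT on control and 0 to 4 for the diet effect in KI minus that in WT, each highest without KI NASH 5. The female minus male KI effect on NASH ranged over 0 to 4 in liver and 0 to 2 in macrophages, and the diet effect in KI in macrophages over 0 to 1. Depth of 14321776 counts or more leaves Ifnb1 at the edge of detection outside male NASH macrophages.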
